A study of Homo sapiens with 6 samples.

Results

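The mRNAs described here encode subunits of the respiratory chain that are made from nuclear genes. They were chosen by name, as 49 genes of complexes I to IV, and all 49 had RT stops in the deposited profiles, which hold 15731 genes or transcripts without a symbol. Of these, 28 genes belong to complex I, 4 to complex II, 7 to complex III and 10 to complex IV, and each was represented by 1 RefSeq transcript. NDUFA4 was kept with complex I as in the list of members, although the current RefSeq table names this gene COXFA4, after complex IV.

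RT-stop profiling records the nucleotide at which reverse transcriptase (RT) halts, and dimethyl sulfate (DMS) adds stops at A and C whose base-pairing face is accessible. All 6 libraries came from U2OS, a human osteosarcoma cell line, and from its poly(A)-selected RNA. A pair of libraries was made without DMS, with RT in 150 mM K+ or, by its label, 150 mM Na+, for which the study's methods name Li+. Another pair came from RNA refolded and treated with DMS in 150 mM K+ or 150 mM Li+, and the last pair from unstressed cells and from cells starved for 2 h in a balanced salt solution, both treated with 8% DMS for 5 min. The 4 DMS libraries were all reverse transcribed in 150 mM K+. Each condition has a single library, so differences between conditions come without a replicate check. Every interval printed with a value below is an exact 95% interval that covers counting error only.

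The libraries held between 12999691 listed stops in unstressed cells and 35371061 in the library labelled K+ without DMS, where listed means at least 3 stops at a nucleotide. The sample labels of the pair without DMS contradict the names of their files, so these are called the libraries labelled K+ and labelled Na+. Of 9 markers of mesenchymal cells, 7 were listed in every library, and their summed level lay between 3681 stops per 1000000 listed stops in starved cells and 6214 in the refolded RNA in K+. VIM made up 2987 of the 3681. Between starved and unstressed cells 4 of the 7 were lower and 1, RUNX2, was higher by the 1.5-fold threshold given below, with a median log2 ratio of -1.76. Their part in the results was not tested. COL1A2 and NT5E, 2 of the 9, were listed in none. Of 7 markers of other cell types, 5 were listed nowhere, PTPRC was listed only in the libraries without DMS, and the summed level of the 7 lay between 1.08 and 10.1 stops per 1000000 listed stops, nearly all of it in HBB.

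The respiratory chain passes electrons from NADH, at complex I, and from succinate, at complex II, to ubiquinone, then through complex III and cytochrome c to oxygen at complex IV. Complexes I, III and IV combine subunits made from mitochondrial DNA with subunits made in the cytosol and imported, whereas complex II is entirely nuclear-encoded. The core subunits of complex I carry the flavin and iron-sulfur clusters, and the accessory subunits surround them. RNA G-quadruplexes (rG4s) are stacks of guanine quartets that K+ stabilizes and that stop RT at the G of their 3′ end. The paper states that DMS also methylates G outside such quartets, which reduces RT stalling, while G inside them is protected.

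RT stops in the 49 mRNAs together took a larger share of the listed stops in cells than in the other RNA samples. They amounted to 1.11% of the listed stops in the library labelled K+ (394176 stops), 1.12% in that labelled Na+ (374391 stops), 1.15% in RNA refolded in K+ (247684 stops) and 1.10% in RNA refolded in Li+ (342939 stops). The share was 1.55% in unstressed cells (interval 1.54 to 1.55%, 201155 stops) and 1.94% in starved cells (1.94 to 1.95%, 467032 stops). Complex II alone went the other way in unstressed cells, at 0.0906% against 0.101% in RNA refolded in K+. Only listed nucleotides enter these shares, so they also depend on depth, and the unstressed library had the fewest listed stops. With libraries thinned to the smallest listed total, the members' median log2 ratio of unstressed cells over RNA refolded in K+ was 0.34. The median over all genes was 0.24, and over nucleotides listed in both libraries the medians were 0.17 and 0.22. These ratios are defined below. The share of a library mixes the amount of an mRNA with how often RT stops on it, and a bulk sample cannot tell fewer transcripts from fewer stops per transcript.

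The summed shares of the complexes were compared between unstressed and starved cells. Complex IV mRNAs held 0.475% of the stops in unstressed and 0.685% in starved cells, complex I mRNAs 0.639% and 0.796%, and complex II mRNAs 0.0906% and 0.158%. Complex III mRNAs held 0.342% in unstressed and 0.306% in starved cells, a lower summed share that rested on CYC1. Without CYC1 the complex went from 0.251% in unstressed cells to 0.275% after starvation. The median log2 ratio of its 7 members, defined below, was 0.46. Leaving out any other single member of any complex did not change the direction of its summed share. The rise of complex II was smaller without SDHD, from 0.0452% to 0.0541% (log2 ratio 0.26 against 0.80 with it). Outside cells complex III took 0.232%, 0.233%, 0.248% and 0.237% without DMS under the K+ and Na+ labels and in RNA refolded in K+ and Li+.

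**Figure D1:**
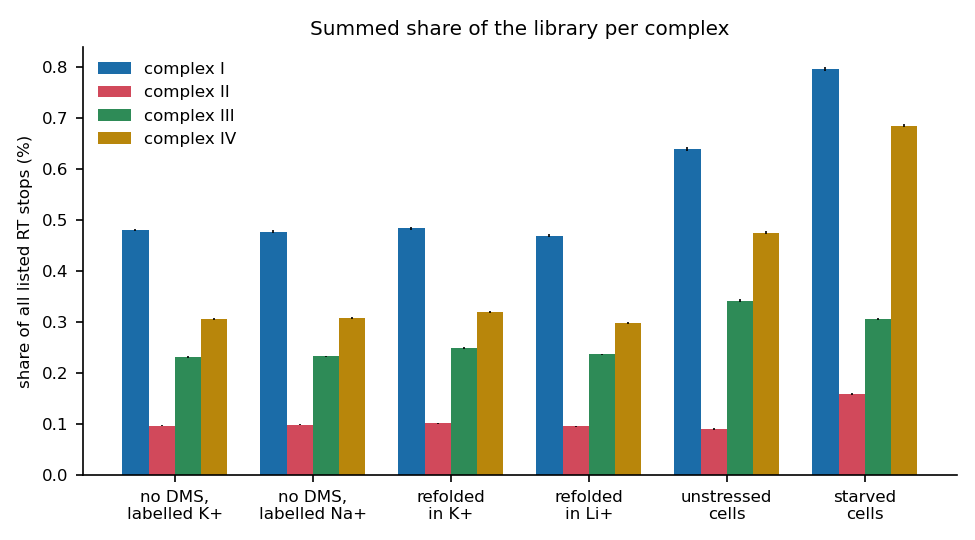
Bars show the summed share of all listed RT stops (%) of complex I, II, III and IV mRNAs in each of the 6 libraries, 1 library per bar group, and the thin error bars are exact 95% intervals for counting error. Complexes I, II and IV reached 0.796%, 0.158% and 0.685% in starved cells, while complex III was at 0.342% in unstressed and 0.306% in starved cells, or 0.251% and 0.275% without CYC1.

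Between starved and unstressed cells, single mRNAs spread over a wide range. A gene was called higher or lower when its share of the listed stops differed by at least 1.5-fold, among genes with at least 100 stops in one of the libraries and at least 1 in the other. All 49 members met this minimum, and 18 were higher, 10 lower and 21 between in starved cells. Over all 8017 genes measured, 34.0% were higher and 42.4% lower. At 2-fold 8 members were higher and 7 lower, against 24.2% and 36.1% of all genes. The median log2 ratio was 0.46 over the members and -0.16 over all genes. With G and U stops only, the median was 0.47 over the members (21 higher and 10 lower of 48) and 0.55 over all 3596 genes left (1776 higher and 1061 lower), so that the members no longer stood above all genes. With the stops of the deeper DMS libraries thinned to the listed total of the unstressed library, and nucleotides left with fewer than 3 stops dropped, the medians were 0.49 (23 higher and 11 lower) and -0.87 (1614 higher and 3878 lower of 7054 genes). All 18 members that were higher on all stops were also higher in both calculations. Over nucleotides listed in both libraries the median of the members was 0.21, with 15 higher and 11 lower of 48, and that of all genes -0.60, with 361 higher and 2513 lower of 4942. The counting interval excluded 0 for 48 of 49 members, 28 above and 20 below, the exception being NDUFA8 (0.08, interval -0.02 to 0.19). The same count over all genes is not given, so these numbers have no reference outside the members.

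**Figure D2:**
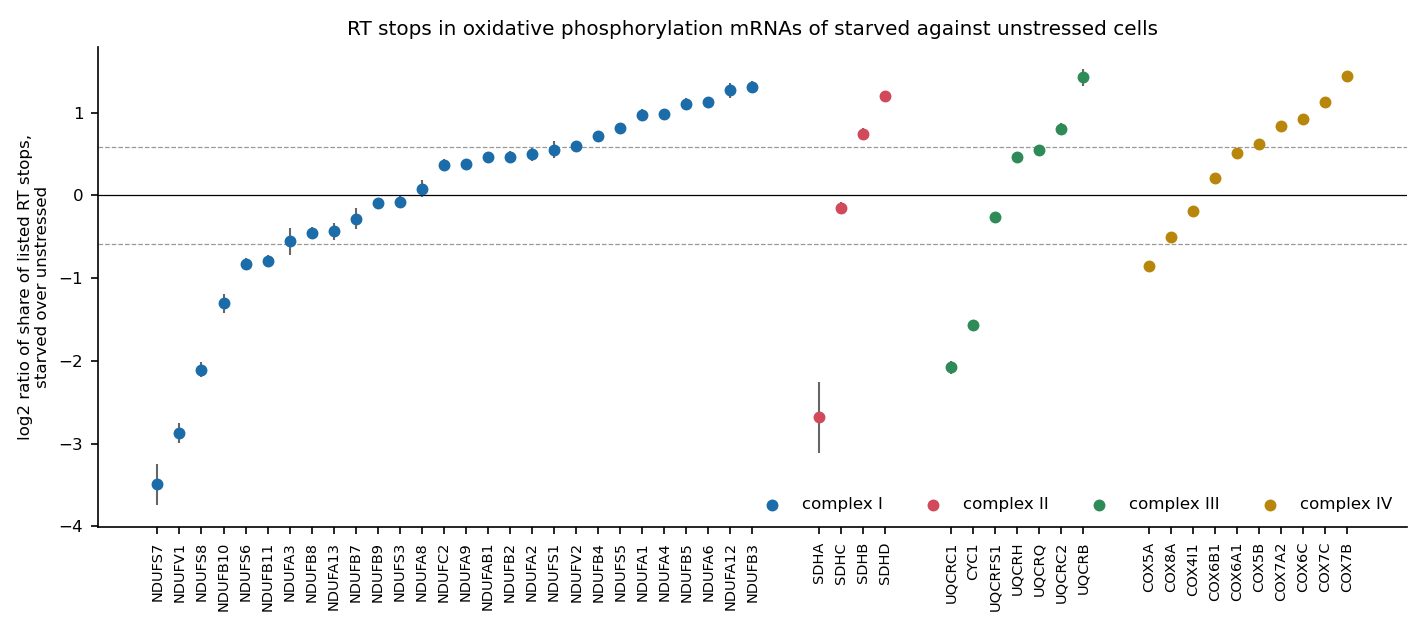
Points show the log2 ratio of the share of listed RT stops in starved over unstressed cells for each of the 49 members, ordered within complexes I to IV, with exact 95% counting intervals as vertical lines and dashed lines at 1.5-fold. Values run from -3.49 for NDUFS7 to 1.44 for COX7B, and each complex holds members on both sides of 0.

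The core subunits of complex I included the lowest ratios. NDUFS7 (chr19:1383906-1395583 on GRCh37, the build also called hg19), which holds the iron-sulfur cluster next to the ubiquinone site, had 1329 and 1263 stops without DMS under the K+ and Na+ labels, 745 and 1379 in RNA refolded in K+ and Li+, 945 in unstressed and 155 in starved cells. Its share was thus 11.3-fold lower in starved than unstressed cells (log2 -3.49, interval -3.75 to -3.25). NDUFV1 (chr11:67374407-67380025), which binds the flavin that accepts electrons from NADH, had 4887, 4819, 3111, 4415, 2741 and 691 stops in the same order of libraries. The starved library was again the lowest of the 6, and the share was 7.33-fold lower (log2 -2.87, -3.00 to -2.75). Of the 6 core subunits 1 was higher and 3 were lower, with a median log2 ratio of -1.09. Of the 22 accessory subunits 8 were higher and 3 lower, with a median of 0.42. The shares of core subunits lower and accessory subunits higher lay near the 42.4% and 34.0% of all genes, and the difference between both sets was not tested. The core mRNAs also had a higher median GC content, 57.3% against 50.1%, and GC content moved with the ratio, as described below.

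Accessory subunits held the highest ratios of complex I. NDUFB3 (chr2:201936724-201950473), a small subunit of the membrane arm, had 5128 and 4652 stops without DMS, 2969 and 3879 in refolded RNA, 2048 in unstressed and 9401 in starved cells, a 2.48-fold higher share (log2 1.31, 1.24 to 1.38). NDUFA12 (chr12:95365109-95397473) had 4065, 3715, 2059, 2771, 1299 and 5784 stops in the same order and a 2.41-fold higher share in starved cells (log2 1.27, 1.18 to 1.36). For both, the starved library held the most stops of any library although it was not the deepest. NDUFB9 (chr8:125551364-125562220) had the most stops per nucleotide of complex I in unstressed cells, 1444 stops per 1000000 listed stops and kilobase, and 1354 in starved cells, and its log2 ratio was -0.09 (-0.12 to -0.06). The sign of this ratio was the opposite with counts under 3 estimated, with libraries thinned to the smallest listed total, and with the median of all genes set to 0.

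SDHD (chr11:111957597-111966518), a membrane anchor, had 18930 and 17487 stops without DMS, 12250 and 16817 refolded, 5907 in unstressed and 25032 in starved cells, a 2.29-fold higher share (log2 1.20, 1.16 to 1.24), and it also had the most stops per nucleotide of the complex in unstressed cells. SDHB (chr1:17345217-17380527), the iron-sulfur subunit, had 7305, 6966, 4538, 6135, 2453 and 7583 stops in the same order and was 1.67-fold higher (0.74, 0.68 to 0.81). SDHC (chr1:161284171-161332996), the other membrane anchor, had 6987, 7885, 4498, 6035, 3212 and 5352 stops and a log2 ratio of -0.15 (-0.21 to -0.09), which lay under the 1.5-fold threshold and turned positive when the median of all genes was set to 0 or only G and U stops were used. Relative to genes of like GC content, a calculation described below, SDHD was at 0.18, SDHC at -0.10 and SDHB at 0.76.

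SDHA (chr5:218435-257197), the flavoprotein that oxidizes succinate, was the one member with fewer than 100 stops in an in-cell library. It had 843 and 807 stops without DMS, 427 and 714 refolded, 211 in unstressed and 61 in starved cells (log2 -2.68, -3.11 to -2.26). Only 8.44% of its span was listed in the library labelled K+, and the mapping kept only reads with a single position. Whether reads shared with other loci are missing from SDHA was not tested. In total 13 members were listed over less than 50% of their span in that library, namely NDUFA3, NDUFA4, NDUFB7, NDUFB11, NDUFC2, NDUFS1, NDUFS7, SDHA, SDHC, UQCRB, UQCRH, UQCRQ and COX6C. Their values rest on the listed part and are uncertain for the whole mRNA.

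In complex III 2 of 7 members were higher and 2 lower, against 34.0% and 42.4% of all genes. UQCRC1 (chr3:48636435-48647079), core protein 1, had 9631 and 9437 stops without DMS, 6452 and 9087 refolded, 5017 in unstressed and 2192 in starved cells, a 4.23-fold lower share (log2 -2.08, -2.15 to -2.01). Its partner UQCRC2 (chr16:21964682-21994981), core protein 2, had 8169, 7305, 4875, 6647, 2130 and 6872 stops in the same order and was 1.75-fold higher (0.80, 0.73 to 0.88). CYC1 (chr8:145149979-145152428), the cytochrome c1 heme protein, had the most stops per nucleotide of the complex in unstressed cells, with 759 stops per 1000000 listed stops and kilobase and 257 in starved cells. Its counts were 18136, 18376, 13264, 17684, 11855 and 7412, and its share was 2.95-fold lower after starvation (log2 -1.56, -1.61 to -1.52). Relative to genes of like GC content UQCRC1 was at 0.16 and UQCRC2 at 0.52, both inside the 1.5-fold threshold, and CYC1 was at 1.10, so that none of the 6 complex III members with a transcript match was lower on that scale. UQCRB, which contributes to ubiquinone binding, had 2530, 2261, 1281, 1982, 952 and 4731 stops and was 2.69-fold higher (1.43, 1.33 to 1.53), with 4.47% of its span listed and no transcript match to give its GC content.

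Of the 10 complex IV mRNAs, 5 were higher in starved cells, 1 was lower and 4 were between, with a median log2 ratio of 0.56. Of all genes 34.0% were higher and 42.4% lower. COX7B (chrX:77154965-77162873), a small subunit of the membrane part, had 16180 and 15020 stops without DMS, 10247 and 14072 refolded, 6403 in unstressed and 32068 in starved cells, a 2.71-fold higher share (log2 1.44, 1.40 to 1.48). COX7C (chr5:85913758-85916779) had 14117, 13262, 8677, 11595, 7013 and 28392 stops in the same order and was 2.19-fold higher (1.13, 1.09 to 1.17). These mRNAs had 3077 and 2971 stops per 1000000 listed stops and kilobase in starved cells, the highest densities of the 49. COX5A (chr15:75212132-75230414) was the member below the threshold, with 10668, 9919, 6496, 9014, 4997 and 5095 stops and a 1.81-fold lower share (-0.86, -0.91 to -0.80). Relative to genes of like GC content COX5A was at -0.19, inside the threshold. On that scale 9 of the 10 were higher and 0 lower, against 29.3% and 28.4% of all genes. COX8A (chr11:63742092-63744015) had the most stops per nucleotide of all members in unstressed cells, 1740 stops per 1000000 listed stops and kilobase against 1225 in starved cells, and a log2 ratio of -0.51 (-0.54 to -0.47).

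The other members past the threshold were NDUFA1, NDUFA4, NDUFA6, NDUFB4, NDUFB5, NDUFS5 and NDUFV2 of complex I and COX5B, COX6C and COX7A2 of complex IV, all higher, and NDUFB10, NDUFB11, NDUFS6 and NDUFS8 of complex I, all lower. Their log2 ratios lay between -2.11 and 1.13. The remaining genes of the pathway were counted in the same way, to be read against the 34.0% higher and 42.4% lower of all genes. Of 14 further genes measured that encode subunits of complexes I, III and IV or cytochrome c, 8 were higher and 3 lower, with a median of 0.67. Of 18 ATP synthase genes, 9 were higher and 3 lower, with a median of 0.59, and of 42 assembly factors measured 23 were higher and 14 lower, with a median of 0.70.

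The ratio followed the GC content of the transcript, in the members as in all genes. Across the 48 members with a transcript match, Pearson's r between GC content and the log2 ratio of starved over unstressed cells was -0.78 (Spearman's rho -0.83), and across 7549 genes it was -0.78 (rho -0.80). These points share the same pair of libraries, and genes are not replicates. The member mRNAs with under 45% GC had a median log2 ratio of 1.10 (11 members) against 0.98 over all genes of that range. In the range of 45 to 50% the medians were 0.72 (13 members) and -0.13, in 50 to 55% they were 0.08 (9 members) and -1.20, and from 55% up they were -0.79 (15 members) and -2.38. Of the members from 55% up, 8 were lower, as were 90.9% of all genes there.

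**Figure D3:**
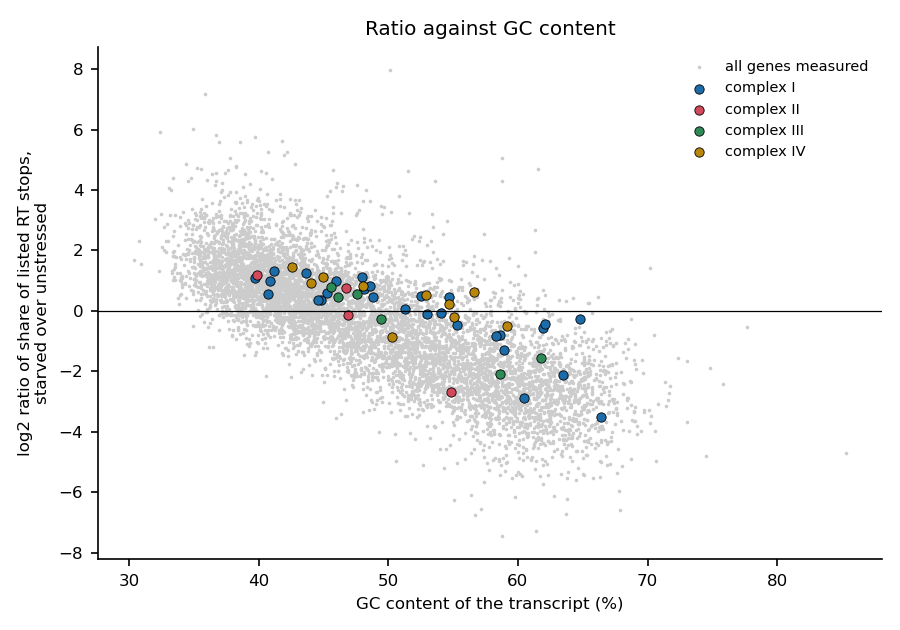
Each point is 1 gene, with the GC content of its transcript (%) on the x axis and the log2 ratio of its share of listed RT stops in starved over unstressed cells on the y axis, all measured genes in grey and members in the colour of their complex. Both sets fall from left to right (r = -0.78 each), and most members above 45% GC lie over the middle of the grey points.

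Relative to the 500 genes nearest in GC content, a calculation added after the data had been seen, the members had a median log2 ratio of 0.83, and 31 of 48 were higher and 2, SDHA (-1.04) and NDUFS7 (-0.69), lower. Over all genes the same calculation gave 29.3% higher and 28.4% lower. NDUFS7 had been at -3.49 before. NDUFV1 was at -0.32, while CYC1, at -1.56 before, was at 1.10. The median of the core subunits of complex I was then -0.02 and that of the accessory subunits 1.15. The part of GC content in the measured ratios was not tested, since the libraries have no replicate.

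RNA refolded outside the cell gave a reference for both in-cell libraries. Between unstressed cells and RNA refolded in K+, 19 members were higher and 1 lower, with a median log2 ratio of 0.51, against 19.6% higher and 31.4% lower over 7838 genes with a median of -0.12. The median of the members fell to 0.26 with G and U stops only (all genes -0.37) and to 0.17 over nucleotides listed in both libraries (all genes 0.22), where the members lay below all genes. With libraries thinned to the smallest listed total, the median of the members was 0.34, with 13 higher and 1 lower. The median of all genes was then 0.24. At 2-fold 2 members were higher and 1 lower, against 7.62% and 18.2% of all genes. This ratio rose with GC content, with Pearson's r of 0.62 across the 48 matched members and 0.67 across 7464 genes. The member that was lower was NDUFS1, the largest core subunit of complex I, with 4159 stops in refolded RNA and 1143 in unstressed cells (log2 -1.14). Between starved cells and the same refolded RNA, 24 members were higher and 8 lower, with a median of 0.58, against 23.5% higher and 47.3% lower over 8271 genes with a median of -0.48. Over nucleotides listed in both libraries these medians were 0.21 and -0.36, and r with GC content was -0.58 across the members and -0.53 across 7800 genes. Both comparisons share the refolded library, so their values are given side by side only. NDUFS7 had a log2 ratio to refolded RNA of 1.07 (0.93 to 1.21) in unstressed and -2.43 (-2.68 to -2.17) in starved cells. COX7B had 0.05 (0.00 to 0.09) in unstressed and 1.49 (1.45 to 1.52) in starved cells, and UQCRC1 had 0.36 (0.31 to 0.42) and -1.72 (-1.79 to -1.65). Between the refolded pair none of the 49 members was 1.5-fold apart, and their log2 ratios of K+ over Li+ lay between -0.35 and 0.17 with a median of 0.06. Over 8601 genes 0.0465% were higher and 10.5% lower in K+, with a median of -0.16.

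The share of stops at A or C, which DMS raises, was lower in starved than unstressed cells in each of the 49 mRNAs. The median member had 50.6% and 50.3% of its stops at A or C under the K+ and Na+ labels, the level without DMS. It had 79.2% and 77.7% in RNA refolded in K+ and Li+, 87.7% in unstressed and 74.8% in starved cells. In all 49 members every DMS library was above both libraries without DMS and unstressed cells were above RNA refolded in K+, and in 47 starved cells were below that refolded RNA. The same order was found in most genes, as over 5804 genes with at least 100 stops in every library these shares were 99.3%, 89.0% and 92.2%, and starved cells were below unstressed cells in 97.6% of 5884 genes. The exact intervals of the in-cell pair did not overlap in 47 members. No such count over all genes is given, so it is not read as particular to the members. A difference of at least 10 percentage points, required in genes with at least 100 stops in both libraries, was found in 37 of 48 members, and in 43.7% of 5884 genes. The median difference was -12.8 points over the members and -9.37 over all genes. It was -12.6 in proteasome mRNAs (28 of 31 past 10 points) and -12.7 in ATP synthase mRNAs (16 of 18). In further subunits of the chain it was -13.1 (13 of 14). In large ribosomal subunit mRNAs it was -10.25 (24 of 45) and in glycolysis mRNAs -10.7 (8 of 14). Over all genes with at least 100 stops the median A or C share was 94.7% in unstressed and 86.2% in starved cells.

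**Figure D4:**
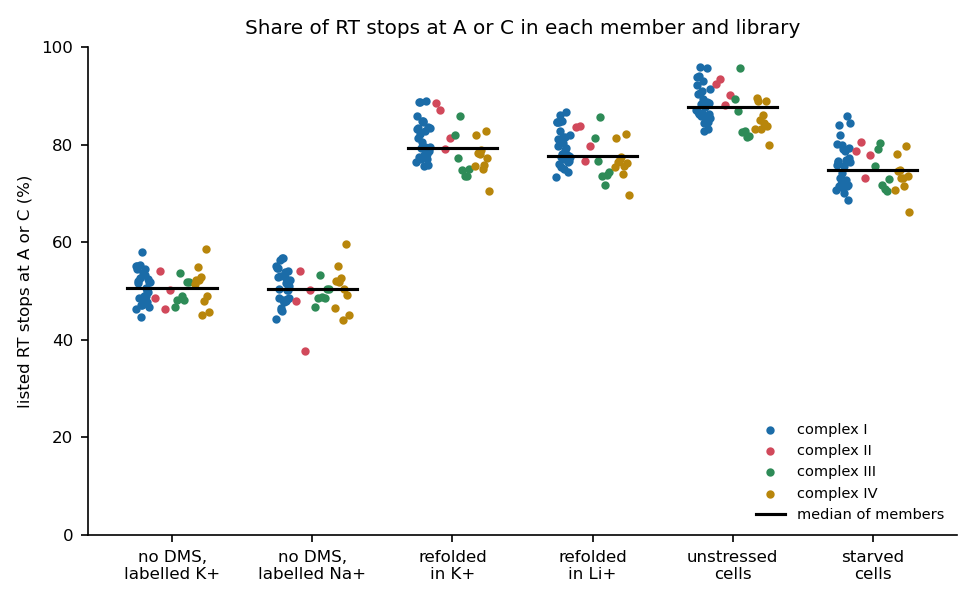
Points show the share of listed RT stops at A or C (%) in each of the 49 members for the 6 libraries, coloured by complex, and black lines mark the median of the members. The medians were 50.6, 50.3, 79.2, 77.7, 87.7 and 74.8% from left to right.

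The largest differences were found in complex I. NDUFA13 (chr19:19627034-19639007), also known as GRIM-19, had 90.5% (interval 88.9 to 92.0%) of its stops at A or C in unstressed and 73.1% (71.1 to 75.1%) in starved cells, a difference of -17.4 points. NDUFS3 (chr11:47600626-47606114), a core subunit of the peripheral arm, had 88.6% and 71.6%, and NDUFAB1 (chr16:23592335-23607637), the mitochondrial acyl carrier protein, had 88.2% and 71.4%. The smallest differences were found in mRNAs whose stops had become fewer. NDUFV1 had 85.5% (84.1 to 86.8%) in unstressed and 84.4% (81.4 to 87.0%) in starved cells, intervals that overlap. UQCRC1 had 86.9% and 79.2%, and CYC1 had 81.7% and 72.9%.

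By base, the change was at C more than at A. The share of stops at C was lower in starved cells in all 49 members, with medians of 25.9% in unstressed and 17.0% in starved cells. At A it was lower in 42, with medians of 60.5% and 56.6%. The share at G was higher in 48 members, with medians of 10.5% and 19.7%. The share at U was higher in 47, with medians of 2.11% and 6.27%. Over 5884 genes the share at C was lower in 95.1% and at A in 58.7%, and the share at G was higher in 97.0% and at U in 81.5%. NDUFA12, for example, went from 71.2% A, 24.8% C and 3.23% G in unstressed to 64.6% A, 17.4% C and 12.6% G in starved cells. In COX8A the shares at A were 38.1% and 36.9%, at C 41.9% and 29.2% and at G 14.6% and 25.0%.

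Because nucleotides with fewer than 3 stops are not listed, this share also depends on depth, and the starved library was deeper than the unstressed one. With the stops under 3 estimated from the deposited means the median difference was -10.6 points, and with libraries thinned to the smallest listed total it was -11.2 points. Over nucleotides listed in both libraries it was -4.12 points, and 1 member differed by at least 10 points.

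The positions of stops within the members were compared by region and by nucleotide. In the 48 matched members, the median share of stops in the 3′ untranslated region (UTR) was 27.6% in unstressed and 29.1% in starved cells, in the coding sequence 65.1% and 65.4% (lower in 29 and higher in 19 members, median difference -0.57 points), and in the 5′ UTR 2.45% and 1.71%. The 3′ UTR share was higher in starved cells in 28 and lower in 20 members, with differences between -8.63 and 13.2 points apart from SDHA, where a difference of 24.6 points rests on 61 stops in starved cells. Over 5538 matched coding transcripts with at least 100 stops in both in-cell libraries, the 3′ UTR share was higher in 48.8% and lower in 47.5%, and the coding-sequence share was higher in 48.5% and lower in 47.9%, with median differences of 0 points. Over the A and C nucleotides listed in at least one of 2 libraries, the median Pearson's r of log2(stops + 1) per member was 0.60 between starved and unstressed cells, 0.42 between unstressed cells and RNA refolded in K+, 0.62 between starved cells and that RNA, and 0.65 between the refolded pair. The lowest value of a member in the in-cell pair was -0.66. Over nucleotides listed in both libraries, added after the data had been seen, these medians were 0.64, 0.64, 0.70 and 0.82. The nucleotides of a transcript share their libraries and depth, so these values are descriptions.

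Strong stops at G, such as RT makes at a folded rG4, were counted in each library. The enrichment score E is the number of stops at a nucleotide over the mean of the entire transcript, and a strong stop had an E of at least 10 where the transcript averaged 1 stop per nucleotide or more. The members had 29 strong stops at G without DMS under the K+ label and 47 under the Na+ label. In RNA refolded in K+ there were 16, in Li+ 15, in unstressed cells 1 and in starved cells 20, on 45 to 47 members that reached the minimum. Over all transcripts that reached it the counts in the same order were 1859 on 3762 transcripts, 6109 on 3660, 454 on 2668, 362 on 3454, 299 on 1689 and 773 on 2189. The counts in cells depended on the definition, as the deposited ratio gave 20 in unstressed and 29 in starved cells, and a transcript minimum of 0.25 stops per nucleotide gave 8 and 20. The mean used for E includes stops at A and C, which DMS raises. The deposited ratio uses the mean of the same base instead. NDUFC2, an accessory subunit of complex I, held 18, 22, 11, 11, 0 and 16 of them. Its listed stops covered 8.57% of its span, so that its transcript mean is low and its E values are high, and it did not reach the transcript minimum in unstressed cells. Without NDUFC2, 1 strong stop was left in unstressed and 4 in starved cells.

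Stops at G that were stronger under the Na+ label were found in 4 members. Strong stops whose E under the Na+ label was at least 2-fold that under the K+ label occurred 15 times, in COX4I1, NDUFA6, NDUFC2 and SDHC, out of 47 members that reached the minimum, whereas 37.8% of 3631 transcripts had one. In the opposite direction 1 stop was found, in SDHC, and 4.9% of the transcripts had one. The 30 bases that end at the stop (5′ to 3′) are shown for 5 of these stops, at least 1 per gene, since runs of 2 or more G, written in capitals, are what an rG4 would be built from. The window of NDUFC2 nucleotide 848 holds no such run.
COX4I1, stop at nucleotide 174: acaccGGGtgtagaGGGcGGtcgcGGcGGG
NDUFA6, stop at nucleotide 127: tgcttgcaaaGGGGtGGGGttgtGGagtGG
SDHC, stop at nucleotide 942: tGGGccGGGttGGGGGGtGGGttGGtgaGG
SDHC, stop at nucleotide 1060: tattgaaagaagagaGGtGGGGGtGGaGGG
NDUFC2, stop at nucleotide 848: tccatccaatacgttgaagtcttcaaaatg

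The COX4I1 stop is in the 5′ UTR (exon 1 of 5, plus strand, chr16:85833317-85833346) of the mRNA for the main regulatory subunit of complex IV. It had 12 stops under the K+ label and 685 under the Na+ label, 9 and 16 in RNA refolded in K+ and Li+. In unstressed cells it had 5 and after starvation 18 stops, and E was 52.5-fold higher in the library labelled Na+. All 4 DMS libraries stayed close to the library labelled K+, with E between 0.676 and 1.53. The NDUFA6 stop is in the coding sequence (exon 1 of 3, minus strand, chr22:42486762-42486791), with 6 and 60 stops without DMS, 0 and 3 in refolded RNA, 0 in unstressed cells and 8 after starvation, where 0 means fewer than 3. The E fold was 10.6 between the libraries without DMS, and the counts of the DMS libraries are too low to order them.

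SDHC held 11 of the 15 stops, at 3 places of its 3′ UTR or beyond. At nucleotide 942 (exon 6 of 6, plus strand, window chr1:161332596-161332625) it was unlisted under the K+ label and had 203 stops under the Na+ label, 18 and 8 in RNA refolded in K+ and Li+, 8 in unstressed and 14 in starved cells. At nucleotide 1060 (window chr1:161332714-161332743) it had 14, 696, 38, 31, 4 and 25 stops, with E of 5.06, 225, 20.5, 13.1, 2.95 and 11.9. The library labelled Na+ was far above the other 5 at both places. At nucleotide 1060 E in starved cells (25 stops) lay between that in unstressed cells (4 stops) and those in refolded RNA (38 and 31 stops). These counts are too low to order starved cells against RNA refolded in Li+. Nucleotides 2340 and 2343 lay past the matched transcript, and no sequence is given for them.

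**Figure D5:**
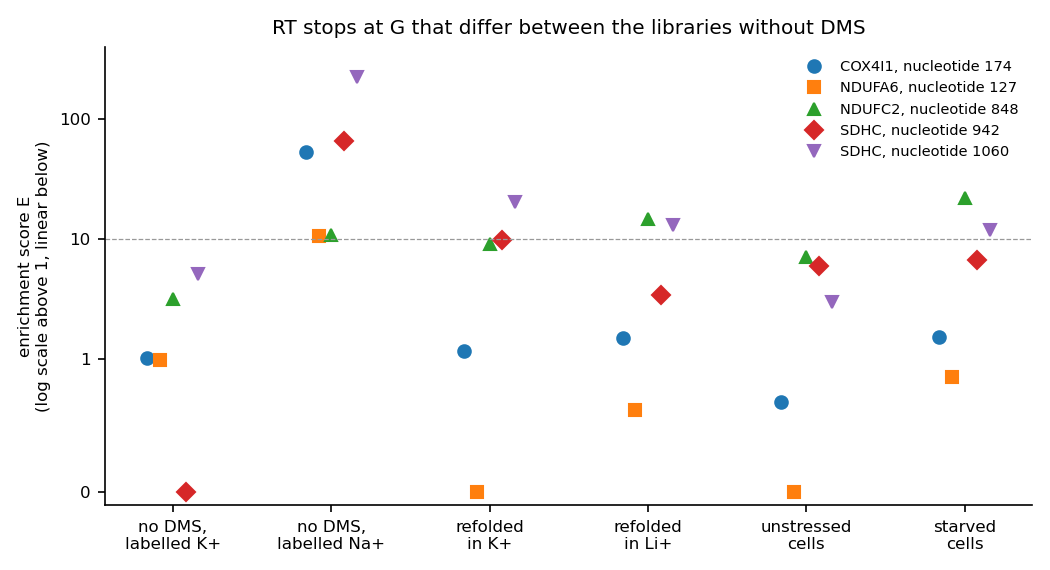
Symbols show the enrichment score E (log scale above 1, linear below) in the 6 libraries at 5 stops at G that are at least 2-fold stronger under the Na+ label, with a dashed line at the strong-stop threshold of 10 and a value of 0 where fewer than 3 stops were seen. In the library labelled Na+ SDHC nucleotide 1060 reached 225 and COX4I1 nucleotide 174 reached 53.4, while in unstressed cells all 5 were under 10.

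The folding score places E in cells between RNA refolded in Li+ (0) and in K+ (1), and it needs an E in K+ at least 2-fold that in Li+. The condition was met by 3 of these stops, all with few stops in every library concerned. At SDHC nucleotide 942 the score was 0.40 in unstressed and 0.51 in starved cells, from 18 and 8 stops in the K+ and Li+ refolded RNA and 8 and 14 stops in cells. At SDHC nucleotide 927 it was 3.06 and -0.31, from 8, 5, 12 and 3 stops in that order. At NDUFC2 nucleotide 938 it was -0.35 and 1.01, with 8 stops in K+ and 3 in Li+. The scores went in opposite directions at the neighbouring SDHC nucleotides, and at this depth none of the 3 is read as a folding state.

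The runs of G were searched by letters. Of the 14 stops that differed between the libraries without DMS and lay within a matched transcript, 11 had 4 runs of at least GG with 1 to 9 bases between them (sense strand) in the 45 bases that end at the stop, as against 13.2% of 10825 windows of the same length ending at any G of the members, windows that overlap each other. Of the 11, 9 lie at neighbouring nucleotides of 2 SDHC sites, so that the 11 rest on 4 separate sites in COX4I1, NDUFA6 and SDHC. The 3 without it were both stops of NDUFC2 and SDHC nucleotide 1153, the stop that was stronger in the library labelled K+. At least one window with such runs was present in 45 of 48 matched members, most of which had no such stop.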

How the data were processed

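The authors removed duplicates, trimmed barcodes and adapters, and mapped reads with Bowtie (version not given in the sources used here) to hg19 transcripts, allowing no mismatch and keeping reads with a single mapping position. They deposited the count of RT stops at each nucleotide with at least 3, and its ratio to the mean of the same base in the transcript. Unlisted nucleotides were taken as 0. The 49 members and the gene lists were chosen with earlier results of these data known. Symbols came from RefSeq, and of the 11031 transcripts with 15 or more listed bases 10366 could be matched to GENCODE release 44 on GRCh37 (identity of at least 97% over at least 80% of the listed bases), UQCRB being the unmatched member. Shares were scaled to the listed total of each library, from 12999691 to 35371061. Intervals are exact binomial (Clopper-Pearson) 95% intervals for counting error, and no test was made across libraries. E was rebuilt from the deposited means and base composition. Named per complex were the 2 highest and 2 lowest ratios (at least 100 stops in both in-cell libraries) and the densest member in unstressed cells, the 3 largest and 3 smallest differences in A or C share, members with stops at G that differed between the libraries without DMS and those under 100 stops. Other named members were chosen after their values were seen. The ratio calculation was tested on simulated data. Python 3.11.15, numpy, pandas and scipy were used.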

Additional observations from a re-analysis of the deposited data

How the results depend on the processing

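No paired analysis was possible because each condition has 1 library, so the groups share fewer than 2 replicate numbers. Of 99 recalculated values 64 lay within the bounds set for them, 1.5 times for a count and otherwise the order-statistic 95% interval of the members' median, and no median changed sign. That interval reflects the spread between members in the same libraries, so a value inside it is not thereby shown to be stable. Within these wide bounds 3 medians still moved by over 1.5 times: 0.21 for starved over unstressed cells over nucleotides listed in both libraries, 1.06 for starved cells over RNA refolded in K+ with the median of all genes set to 0, and -1.22 points for the coding-sequence share over nucleotides listed in both. Also, with G and U stops only the members' median (0.47) was below that of all genes (0.55). For starved against unstressed cells the median log2 ratio of the members was 0.62 with the median of all genes set to 0 and 0.83 relative to genes of like GC content, where 31 were higher and 2 lower, and at 2-fold 8 were higher and 7 lower. The median of unstressed cells over RNA refolded in K+ was 0.17 over nucleotides listed in both libraries, 0.63 with the median of all genes set to 0 and 0.26 with G and U stops only, and at 2-fold 2 members were higher. The median of starved cells over that RNA was 0.21 over nucleotides listed in both. The difference in A or C share was -10.6 points with counts under 3 estimated, -11.2 points with thinned libraries and -4.12 points over nucleotides listed in both, with 1 member past 10 points. For strong stops at G the counts in unstressed cells, in starved cells, in the libraries labelled K+ and Na+ and stronger in K+ were 29, 83, 190, 180 and 16 at an E of at least 5, where the library labelled K+ had more than the one labelled Na+, and 0, 1, 6, 13 and 0 at an E of at least 20. With the deposited ratio there were 20 in unstressed cells, 29 in starved cells and 0 stronger in K+. With a transcript minimum of 0.25 these were 8, 20 and 4. Without NDUFC2 starved cells had 4 and the libraries labelled K+ and Na+ 11 and 25. With the labels of the pair without DMS exchanged, 15 stops were stronger in K+. The profile r of unstressed cells with RNA refolded in K+ was 0.615 by rank and 0.641 over nucleotides listed in both, and that of starved cells 0.730 by rank. The calculations relative to GC content, without NDUFC2 and over nucleotides listed in both for profiles, complex III without CYC1 (0.251% in unstressed and 0.275% in starved cells) and complex II without SDHD were chosen after seeing the data.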

Other observations

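Other housekeeping pathways, from lists chosen with earlier results known, were counted between starved and unstressed cells on the same scale. Their counts are to be read against the 34.0% higher and 42.4% lower of all genes. Of 45 mRNAs for proteins of the large ribosomal subunit, 28 were at least 1.5-fold higher and 5 lower in starved cells, with a median log2 ratio of 0.77 and a median GC content of 48.95%. Of 15 glycolysis mRNAs measured, 1 was higher and 11 were lower, with a median of -1.50 and a median GC content of 54.3%. Of 31 proteasome mRNAs, 8 were higher and 10 lower, with a median of 0.20. Relative to genes of like GC content the medians were 1.32, -0.09 and 0.26.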
